A study of Mus musculus with 8 samples.

Results

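Fibroblast growth factors (FGFs) and their receptors were followed in neonatal cardiomyocytes (NCMs), the dissociated heart muscle cells of newborn mice. The set holds 10 genes, taken by their Entrez identifiers from the deposited table of raw counts of 27179 genes. They are the secreted ligands Fgf1, Fgf2, Fgf9, Fgf16 and Fgf18, the intracellular factors Fgf12 and Fgf13, and the receptors Fgfr1, Fgfr2 and Fgfr3. Each library came from the NCMs of 1 male C57Bl/6 J heart collected at birth (postnatal day 0, PND0). Dams had breathed filtered air (FA) or diesel exhaust (DE) from embryonic day 0.5 to 17.5 after mating in FA, and 4 libraries represent each group. Hearts were trimmed of atrial and vascular tissue, dissociated and plated with Ara-C so that fibroblasts attached and were left behind. The methods give fewer hearts per group than the labels, and all labelled libraries were used here. Whether hearts of a group came from different litters is not given in the sources used here, so p-values measure the spread between these libraries. The libraries of a group were not equally alike. The chi-square of counts per gene was 5.06 between FA replicates 2 and 4, more than the sampling noise of 1 but less than the 18.4 to 43.2 of other FA pairs. DE replicates 1 and 7 (16.0) and 3 and 5 (20.2) were closer than other DE pairs (34.8 to 62.8). All were kept as separate libraries, and fits without FA replicate 2 or 4 count that pair once.

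Secreted FGFs leave the cell that makes them, bind heparan sulfate on the cell surface and activate receptor tyrosine kinases, which signal through Ras and MAP kinases to Etv transcription factors and to feedback inhibitors of the Sprouty family. In the developing heart, ligands such as Fgf9 and Fgf16 act on cardiomyocytes through Fgfr1 and Fgfr2 and are known for their part in the growth of the ventricular wall. Fgf12 and Fgf13 lack a secretion signal, stay inside the cell and bind the tails of voltage-gated sodium channels. The comparison of DE with FA addresses which of these transcripts differed at birth after exposure in utero.

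Libraries held 17943024 to 39839737 counts, and 14966 genes had enough counts to be tested. Levels are library-size-normalized counts (CPM, with library totals scaled by TMM factors) and are given in the order FA replicates 2, 3, 4 and 6 and DE replicates 1, 3, 5 and 7. In the sample names, prefix 11 belongs to every FA library and to DE replicates 1 and 7, and prefix 12 to DE replicates 3 and 5, a number whose meaning is not given in the sources used here. The closer DE pairs named above, 1 with 7 and 3 with 5, are the DE libraries that share a prefix. Calls required an adjusted p no higher than 0.05 (edgeR's quasi-likelihood test, Benjamini-Hochberg over all tested genes, as for every adjusted p below) and a difference of at least 25%. All 9 cardiomyocyte markers examined, such as Myh6, Tnnt2 and Ttn, were detected, with a summed level from 68520 to 73890 CPM in FA and from 58200 to 68000 CPM in DE. The 9 fibroblast markers, among them Col1a1 and Dcn, were also detected, and their sum ran from 2015 to 3469 CPM in FA and from 3665 to 6186 CPM in DE, so the groups did not overlap in either sum. All 9 fibroblast markers were higher in DE, 3 of them called, with a median log2 fold change of 0.64. Of the cardiomyocyte markers, 8 were lower and 1 higher, with 1 called in each direction and a median log2 fold change of -0.15. The called ones were the myosin heavy chains Myh6 (-0.67) and Myh7 (0.53). Ttn had the lowest value (-0.80, not called), while Tnnt2, Tnni3 and Myl2 had -0.06, -0.06 and -0.05. Fewer cells of a type and less RNA per cell cannot be told apart in these bulk libraries, and the part of the marker shift in the results below was not tested.

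Of the 10 genes, 9 had enough counts to be tested and 2 were called, against 5.8% of all tested genes. Fgf1 was lower in DE NCMs and Fgfr1 was higher. Called genes made up 2.22% of tested genes in the lower direction and 3.58% in the higher one. All 4 tested secreted ligands had negative log2 fold changes and all 3 receptors positive ones, but 3 of those ligands and 2 of those receptors did not pass the test. The libraries of the groups did not overlap for 4 genes, Fgf1, Fgf9, Fgf13 and Fgfr1, a pattern seen in 14.7% of tested genes. The median log2 fold change over all tested genes was 0.0037.

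**Figure D1:**
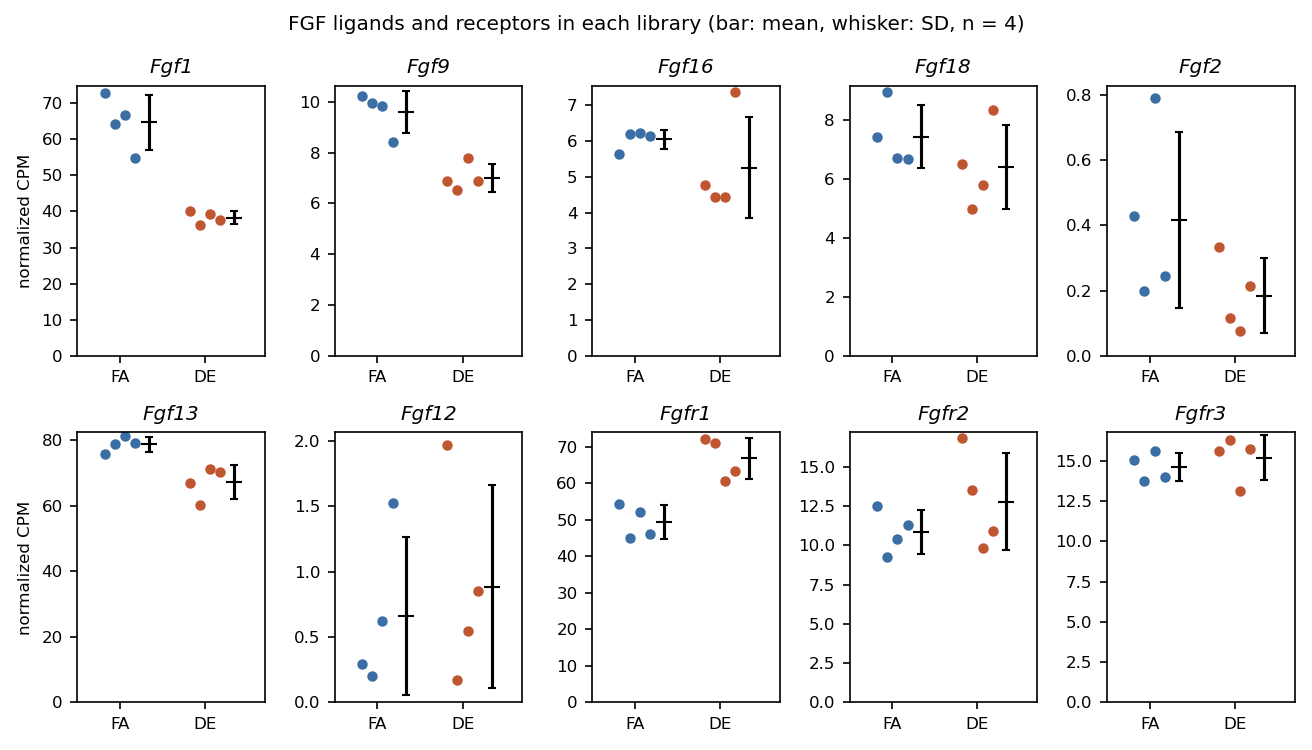
Normalized CPM (vertical axes, starting at 0) of the 10 genes in each FA (blue) and DE (orange) library, with the mean as a bar and the SD as a whisker (n = 4). The lowest FA library of Fgf1 has 54.8 CPM and the highest DE library 40.1 CPM, while Fgfr1 reaches 54.5 CPM in FA and starts at 60.7 CPM in DE.

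Fgf1 is a ligand that can bind all FGF receptors and that lacks a classical secretion signal. It spans 38838672 to 38929470 on chromosome 18 of the minus strand in GRCm38 (Entrez 14164). Its level was 72.9, 64.3, 66.7 and 54.8 CPM in FA and 40.1, 36.2, 39.4 and 37.5 CPM in DE. Every DE library lay below every FA library, and the DE libraries were the closer together. The mean fell from 64.7 ± 7.52 to 38.3 ± 1.74 CPM (SD, n = 4), 40.8% lower in DE. The log2 fold change was -0.76 (standard error 0.10, 95% interval -0.98 to -0.53) with an adjusted p of 0.00300. It ranked 59th by p among all tested genes. The study named Fgf1 as changed from these same samples, so its direction here is no independent evidence. The call held in 20 of 20 alternative analyses, with a log2 fold change from -0.83 to -0.69. Within the libraries of prefix 11 alone the difference was -0.74 with an adjusted p of 0.0223.

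Fgf9, the ligand secreted by the epicardium and endocardium of the developing heart, measured 10.2, 9.97, 9.82 and 8.41 CPM in FA and 6.87, 6.51, 7.81 and 6.88 CPM in DE. It lies on chromosome 14 from 58070671 to 58112854 (Entrez 14180). The groups did not overlap, and the mean went from 9.61 ± 0.82 to 7.02 ± 0.55 CPM (SD, n = 4). With a log2 fold change of -0.45 (standard error 0.12, 95% interval -0.72 to -0.19) and an adjusted p of 0.0506 it narrowly missed the call. It passed in 6 of 20 alternatives, with an adjusted p from 0.0144 in DESeq2 to 0.511 with the 25% difference built into the test. With each library left out it passed in 1 of 8 fits, without FA replicate 6 (0.0435), and reached 0.157 without FA replicate 2. Within prefix 11 it was 0.126.

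Fgf16, a close relative of Fgf9 that is made by cardiomyocytes, lies on chromosome X from 105764477 to 105776532 (Entrez 80903). It measured 5.64, 6.18, 6.21 and 6.15 CPM in FA and 4.78, 4.45, 4.44 and 7.36 CPM in DE. DE replicates 1, 3 and 5 lay below all FA libraries, while DE replicate 7 was the highest of all 8. The log2 fold change was -0.22 (95% interval -0.60 to 0.17, adjusted p 0.463), and within prefix 11 it was -0.01. Fgf18, a ligand best known from the skeleton and lung, lies on chromosome 11 from 33116970 to 33147400 (Entrez 14172). Its levels were 7.43, 8.97, 6.72 and 6.69 CPM in FA and 6.51, 4.99, 5.81 and 8.37 CPM in DE. Its groups overlapped, with a log2 fold change of -0.23 (95% interval -0.61 to 0.15, adjusted p 0.432) over all libraries and -0.02 within prefix 11.

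Fgf2, or basic FGF, is a heparin-binding ligand on chromosome 3 from 37348477 to 37410106 (Entrez 14173). Only 61 counts fell on it in all, namely 16, 4, 14 and 5 in FA and 11, 4, 3 and 4 in DE, so it was not tested. It overlaps Nudt6, a gene of the opposite strand, over 640 exon bases, which are 9.63% of its own exon length. Nudt6 itself went from 10.2 ± 0.90 in FA to 8.26 ± 1.27 in DE (CPM, SD, n = 4), with an adjusted p of 0.188. The strand setting of the counting is not given in the sources used here, so reads of Fgf2 and Nudt6 in the shared bases may not be separated.

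Fgf13, an intracellular factor, lies on chromosome X from 59062139 to 59585572 (Entrez 14168). It is annotated with several starts that give proteins with different first parts, and gene counts do not separate them. The RefSeq promoter table for GRCm38.p6 holds 4 of these starts, all on the minus strand. The 250 bases before each are printed because they show how unlike the annotated starts behind a single gene row are, and which of them these libraries use was not measured. They are chrX:59585573-59585822, chrX:59567349-59567598, chrX:59166089-59166338 and chrX:59134437-59134686, and capitals mark the letters GGGCGG or their reverse complement CCGCCC, known as a GC box.
Fgf13 start 1: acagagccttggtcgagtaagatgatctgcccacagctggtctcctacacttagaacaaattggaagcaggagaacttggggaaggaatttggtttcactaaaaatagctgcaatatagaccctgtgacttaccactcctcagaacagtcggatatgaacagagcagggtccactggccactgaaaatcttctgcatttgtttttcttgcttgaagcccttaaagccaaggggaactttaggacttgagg
Fgf13 start 2: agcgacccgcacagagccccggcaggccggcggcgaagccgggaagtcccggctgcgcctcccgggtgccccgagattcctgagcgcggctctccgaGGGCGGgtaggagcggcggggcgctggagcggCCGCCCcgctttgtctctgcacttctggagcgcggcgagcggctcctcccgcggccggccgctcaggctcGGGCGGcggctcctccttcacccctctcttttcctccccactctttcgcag
Fgf13 start 3: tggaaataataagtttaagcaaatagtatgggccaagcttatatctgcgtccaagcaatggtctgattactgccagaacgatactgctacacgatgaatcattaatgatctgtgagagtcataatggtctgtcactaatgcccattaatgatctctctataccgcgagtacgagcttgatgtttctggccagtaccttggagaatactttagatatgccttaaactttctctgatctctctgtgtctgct
Fgf13 start 4: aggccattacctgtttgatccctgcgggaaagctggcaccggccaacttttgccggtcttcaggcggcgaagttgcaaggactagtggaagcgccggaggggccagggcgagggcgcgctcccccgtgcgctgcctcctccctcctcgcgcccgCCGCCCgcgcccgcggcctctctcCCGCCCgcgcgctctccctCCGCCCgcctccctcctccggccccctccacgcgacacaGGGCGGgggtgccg
Starts 2 and 4 had a GC content of 74.8% and 74.4% and held 3 and 4 of these boxes, while starts 1 and 3 had 45.6% and 40.4% and held 0. Among 32851 promoters of the same length, 32.7% held at least 1 box on either strand and the median GC content was 52.4%. A match is a description of these letters only.

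The Fgf13 level was 75.6, 78.7, 81.3 and 79.2 CPM in FA and 66.9, 60.2, 71.3 and 70.4 CPM in DE. The groups did not overlap, yet the difference was small, from 78.7 ± 2.34 to 67.2 ± 5.07 CPM (SD, n = 4). The log2 fold change of -0.23 (95% interval -0.42 to -0.03) had an adjusted p of 0.144, and Fgf13 was called in 0 of 20 alternatives. Fgf12, the other intracellular factor, lies on chromosome 16 from 28157783 to 28753243 (Entrez 14167). It had 11, 4, 11 and 31 counts in FA and 65, 6, 22 and 16 in DE. Its spread within groups was wider than any difference between them, with a log2 fold change of 0.48 (95% interval -1.07 to 2.02, adjusted p 0.702). Leaving out DE replicate 1, the highest library, turned it to -0.36.

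Fgfr1 is the main FGF receptor of cardiomyocytes and is also made by fibroblasts. It lies on chromosome 8 from 25518759 to 25575718 (Entrez 14182). It measured 54.5, 44.9, 52.1 and 46.2 CPM in FA and 72.3, 71.1, 60.7 and 63.3 CPM in DE. All DE libraries lay above all FA libraries. Its mean rose from 49.4 ± 4.60 to 66.8 ± 5.73 CPM (SD, n = 4), a fold of 1.35 and a log2 fold change of 0.43 (standard error 0.10, 95% interval 0.21 to 0.66) with an adjusted p of 0.0350. The direction held in 20 of 20 alternatives, with values from 0.39 to 0.56, but the call held in 11. Leaving out any FA library ended it, with adjusted p-values of 0.0669, 0.0779, 0.0915 and 0.0644 without FA replicates 2, 3, 4 and 6. It was also lost without DE replicate 1 (adjusted p 0.0551) and without DE replicate 3 (0.104). The same held within prefix 11 (log2 fold change 0.45, 0.0967) and with the prefix as a term (0.0714). Over all tested genes, calls fell from 868 to 249, 433 and 237 without FA replicates 2, 3 and 4. They were 826 without FA replicate 6, 1168 without DE replicate 1 and 268 without DE replicate 3. The summed fibroblast markers, given above, also lay higher in every DE library than in every FA library. The summed cardiomyocyte markers lay lower in every DE library than in every FA library, as did Fgf1, Fgf9 and Fgf13. The part of either marker shift in these differences was not tested.

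The other receptors showed no difference that passed the test. Fgfr2, on chromosome 7 from 130162451 to 130266808 (Entrez 14183), measured 12.5, 9.22, 10.4 and 11.3 CPM in FA and 16.8, 13.5, 9.83 and 10.9 CPM in DE. Its groups overlapped, with a log2 fold change of 0.23 (95% interval -0.14 to 0.61, adjusted p 0.416). Fgfr3, on chromosome 5 from 33721724 to 33737068 (Entrez 14184), was the steadiest of the receptors at 15.1, 13.8, 15.6 and 14.0 CPM in FA and 15.6, 16.3, 13.1 and 15.7 CPM in DE. Its log2 fold change was 0.05 with a 95% interval from -0.18 to 0.29 (adjusted p 0.779). Fgfr3 and Fgfr1 each share exon bases with an antisense gene that is no row of the counts, 948 bases with G630022F23Rik and 164 with Gm16159. The longest identical stretch between transcripts of any pair of the 10 genes was 26 bases, between Fgfr1 and Fgfr3, followed by 25 bases between Fgf9 and Fgf16.

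**Figure D2:**
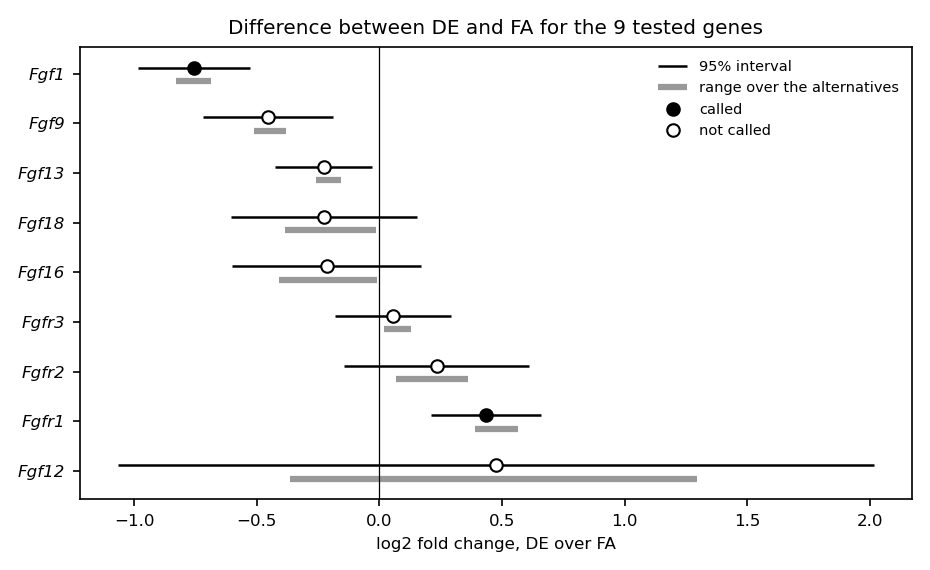
Log2 fold change of DE over FA (horizontal axis) for the 9 tested genes, with the 95% interval in black and the range over the alternative analyses in grey. Filled points mark the called genes, Fgf1 at -0.76 and Fgfr1 at 0.43, and the interval of Fgf12 runs from -1.07 to 2.02.

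Per kilobase of exon, which allows levels of different genes to be set side by side, Fgf13 was the highest of the 10 in FA at 19.6 CPM per kb. It was followed by Fgf1 at 11.8, Fgf18 at 6.28, Fgfr1 at 5.12, Fgf16 at 4.18, Fgf9 at 2.11, Fgfr3 at 2.06 and Fgfr2 at 1.08 CPM per kb. Fgf12 and Fgf2 were lowest at 0.11 and 0.063 CPM per kb. Among 14278 tested genes with a known exon length, Fgf13 stood at percentile 85.0, Fgf1 at 75.6 and Fgfr2 at 24.0. Neighbours in this order whose FA libraries overlapped were Fgf18 and Fgfr1, Fgf9 and Fgfr3, and Fgf12 and Fgf2. In DE the order began with Fgf13 at 16.7, Fgf1 at 7.01, Fgfr1 at 6.92 and Fgf18 at 5.41 CPM per kb. There Fgf1, Fgfr1 and Fgf18 overlapped step by step, as did Fgf18 and Fgf16, Fgf9 and Fgfr2, and Fgf12 and Fgf2. Of the summed Fgfr1, Fgfr2 and Fgfr3 levels per kb, Fgfr1 held 62.6%, 62.0%, 62.5% and 60.7% in the FA libraries and 65.9%, 66.9%, 68.9% and 66.5% in the DE libraries.

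The ratio of Fgf1 CPM to Fgfr1 CPM within a library was 1.34, 1.43, 1.28 and 1.19 in FA and 0.55, 0.51, 0.65 and 0.59 in DE. This ratio does not depend on how a library was scaled. Its medians were 1.31 and 0.57, and since neither gene overlapped between groups and they moved in opposite directions, the separation of the ratio follows from that and adds nothing to it. The genes whose log2 CPM ran most nearly parallel to Fgf1 over the 8 libraries were Cul4a, Erbb2 and Acacb, with Pearson's r of 0.992, 0.991 and 0.990. For Fgfr1 they were Sdc3 (0.994), Dclk2 (0.983) and B3galnt1 (0.980), and for Fgf9 they were Afg3l2 (0.977), Osbp (0.973) and Efnb3 (0.972). These values are descriptions over libraries that fall into the exposure groups, and they carry the gap between the groups.

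**Figure D3:**
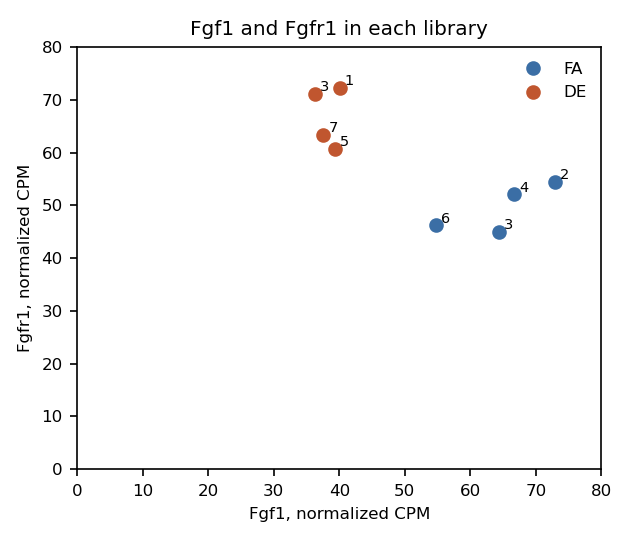
Normalized CPM of Fgf1 (horizontal axis) against Fgfr1 (vertical axis) in each library, with the replicate number beside each point. The 4 FA libraries lie at the lower right and the 4 DE libraries at the upper left, with ratios of Fgf1 to Fgfr1 from 1.19 to 1.43 in FA and from 0.51 to 0.65 in DE.

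Around these genes, 98 further genes of the pathway were listed, of which 78 were tested and 9 called, 7 higher and 2 lower in DE. Over all tested genes 5.8% were called, 3.58% higher and 2.22% lower, and no list was tested against that background. The list of targets and feedback inhibitors had 8 of 11 tested genes higher, 3 of them called, and a median log2 fold change of 0.29. Etv4, an ETS transcription factor induced by FGF signalling, measured 1.85, 2.19, 2.14 and 1.92 CPM in FA and 4.36, 5.77, 4.24 and 3.31 CPM in DE. Its log2 fold change was 1.14 (standard error 0.19) with an adjusted p of 0.00882, and it was called in 20 of 20 alternatives. The study also named Etv4 as changed from these samples. It did so among genes near regions of altered DNA methylation, which were measured in different mice. The feedback inhibitor Spry1 rose from 15.8 ± 2.13 to 24.9 ± 4.22 CPM (SD, n = 4; log2 fold change 0.65, adjusted p 0.0282). Its relative Spry4 rose from 13.9 ± 2.16 to 21.8 ± 2.42 CPM (SD, n = 4; 0.64, 0.0231). No library of one group overlapped the other for any of the 3, which adds nothing to calls made from the same libraries. The call of Spry1 was lost on leaving out FA replicate 2, 3, 4 or 6 or DE replicate 3 or 7, with an adjusted p of at most 0.0793, and that of Spry4 without FA replicate 2 or 4 or DE replicate 3, with at most 0.0715. Calls over all genes fell too without FA replicate 2, 3 or 4 or DE replicate 3, as given above. Within prefix 11, Spry4 had an adjusted p of 0.0863. Etv5, a relative of Etv4, had a log2 fold change of 0.39 without overlap but an adjusted p of 0.118. The values were 0.01 for Etv1, 0.02 for Spry2 and 0.29 for the MAP kinase phosphatase Dusp6, none of them called.

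Among 28 tested genes of heparan sulfate and its carriers, 17 were higher and 11 lower, with 3 called and a median of 0.12. Syndecans are membrane proteins that carry heparan sulfate chains and present FGFs to their receptors. Sdc3 rose from 53.7 ± 6.2 to 75.6 ± 8.92 CPM (SD, n = 4), a log2 fold change of 0.49 with an adjusted p of 0.0356. Sdc4 rose from 21.6 ± 3.11 to 30.9 ± 1.55 CPM (SD, n = 4), a log2 fold change of 0.52 with an adjusted p of 0.0269. Extl3, an enzyme that starts the heparan sulfate chain, fell from 86.6 ± 10.8 to 59.4 ± 6.96 CPM (SD, n = 4), a log2 fold change of -0.54 with an adjusted p of 0.0277. All 3 calls were lost in some fits with 1 library left out. Each was lost without FA replicate 2, 3 or 4 or DE replicate 3, where calls over all genes also fell. With each library left out, the log2 fold change ran from 0.43 to 0.55 for Sdc3. It ran from 0.47 to 0.62 for Sdc4 and from -0.61 to -0.47 for Extl3. Sdc3 was also lost without FA replicate 6 or DE replicate 1, and Extl3 without DE replicate 7, with adjusted p-values up to 0.106 for Sdc3, 0.0988 for Sdc4 and 0.0950 for Extl3. Within prefix 11, Extl3 kept its call (adjusted p 0.0399), while Sdc3 and Sdc4 had adjusted p-values of 0.0853 and 0.105.

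The signal transducers between receptor and nucleus, from Frs2 to the MAP kinases, had 16 of 24 tested genes lower and 8 higher, with a median of -0.15. None was called by edgeR, with 7 of 24 at an unadjusted p under 0.05 against 3828 of all 14966 tested genes, and the smallest adjusted p was 0.0798 for the MAP kinase Mapk3. Of 15 other FGF genes, 5 had enough counts to be tested. Fgf23, a hormone that acts on phosphate handling in the kidney, was the called one and rose from a low level of 0.53, 0.30, 0.40 and 0.49 CPM in FA to 1.03, 1.58, 0.90 and 0.85 CPM in DE. On 184 counts in all it had a log2 fold change of 1.31, a standard error of 0.29 and an adjusted p of 0.0289. Log2 fold changes of Fgf5, Fgf11, Fgf14 and Fgf17 were 0.29, 0.34, -0.19 and 0.65, none called. Fgfr4 rose from 0.19 ± 0.084 to 0.54 ± 0.098 CPM (SD, n = 4) on only 88 counts, a log2 fold change of 1.45 with an adjusted p of 0.0352. The decoy-like receptor Fgfrl1 had a log2 fold change of -0.19 (adjusted p 0.465). The call of Fgf23 was lost without FA replicate 2, 3 or 4 or DE replicate 3 (adjusted p up to 0.0915), where calls over all genes also fell. That of Fgfr4 was lost when any FA replicate or DE replicate 7 was left out (up to 0.0915), and without DE replicate 1 or 3 it had too few counts to be tested. Within prefix 11 the adjusted p was 0.116 for Fgf23 and 0.103 for Fgfr4. The klothos, co-receptors of hormone-like FGFs, had 12 counts for Kl and 47 for Klb and were not tested.

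**Figure D4:**
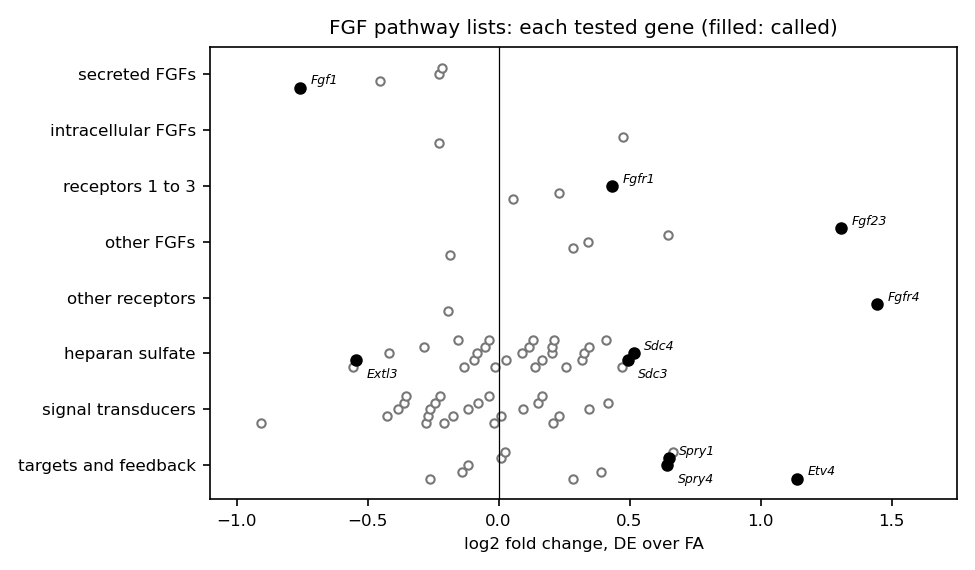
Log2 fold change of DE over FA (horizontal axis) of every tested gene, in rows for the gene lists described above, with called genes filled and named. Targets and feedback inhibitors reach 1.14 at Etv4, and the called Extl3 of the heparan sulfate list stands at -0.54.

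**Figure D5:**
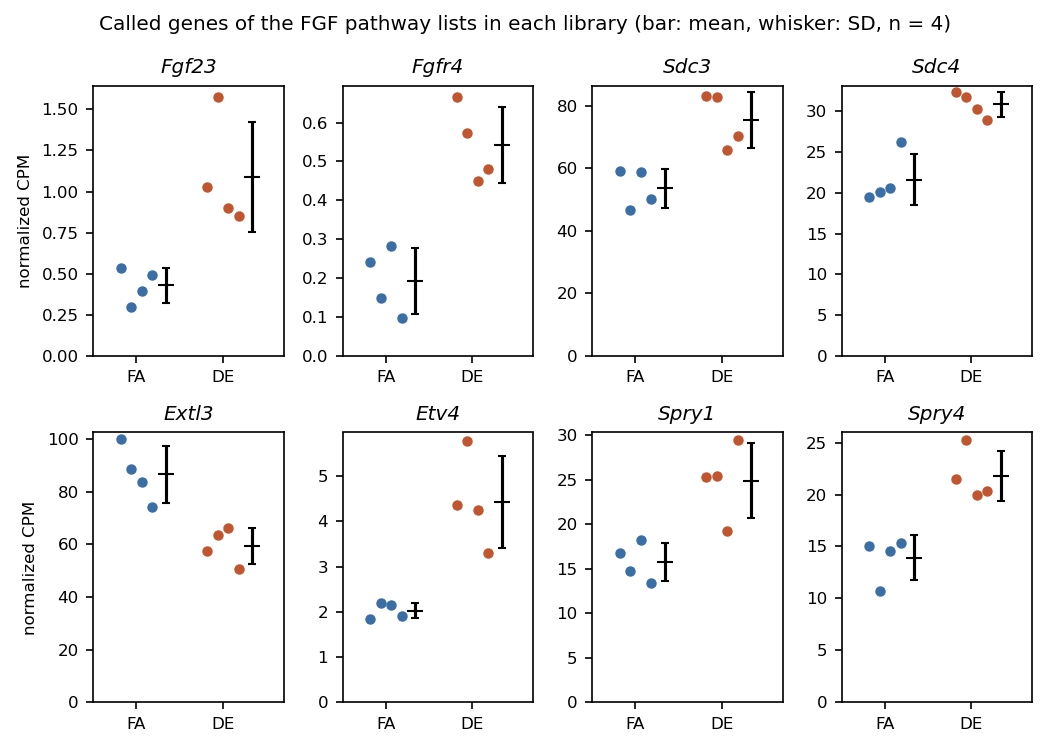
Normalized CPM (vertical axes, starting at 0) in each FA (blue) and DE (orange) library of the called genes of the pathway lists described above, with the mean as a bar and the SD as a whisker (n = 4). The groups do not overlap in any panel, with Etv4 between 1.85 and 2.19 CPM in FA and between 3.31 and 5.77 CPM in DE. The genes were picked as called in these same libraries, so this gap adds nothing to the calls.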

How the data were processed

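The authors enriched poly-A RNA, made libraries with a stranded kit, mapped the reads with TopHat (genome mm10, transcriptome Ensembl v67), kept marked duplicates, and ran featureCounts. What they deposited is a table of raw counts by Entrez gene. Neither the strand setting nor the treatment of reads on several genes is given in the sources used here.

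Groups follow the exposure in the labels. Entrez identifiers were matched to symbols for 25275 of 27179 genes. After edgeR's filterByExpr (minimum count 10) 14966 genes were tested with the quasi-likelihood test in edgeR 4.0.16 under R 4.3.3, with TMM factors and exposure as the only term. CPM values were computed from the deposited counts with the same factors, and CPM per kb from GENCODE exon lengths. For the 10 genes only exon bases within the RefSeq span were counted, for all other genes the full exon length. The percentiles of levels per kb set both kinds of length side by side. Likeness used log2 CPM with a prior count of 2. Alternatives used DESeq2 1.42.0, edgeR's likelihood ratio test, limma-voom (limma 3.58.1), other thresholds, factors and filters, the prefix of the sample name and each library left out. Offsets for exon length were added after the data were seen. The fit was also run on simulated counts, and the outcome is not given here. Those libraries were drawn as independent, unlike the unequally alike ones here, so the run does not speak for the calls above.

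The 10 genes and the pathway and marker lists were chosen with earlier results of these data known. Named genes are the 10 genes, called genes of the lists, genes of short lists, genes that overlap a member, and the 3 genes most like each of the 3 members of smallest p. Etv5, Etv1, Spry2, Dusp6 and Mapk3 were named after their values were seen. Other marker lists (endothelial, mesothelial, mural, leukocyte, erythroid, atrial) had medians of 0.18, 0.06, 0.16, 0.49, 0.41 and 0.26 on the log2 scale, with 1 erythroid gene called. Of the called pathway genes, 1 is not reported here.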

Additional observations from a re-analysis of the deposited data

Results flagged for a closer look

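Fgf16 was marked in both groups because 1 library stood far from the other 3. FA replicate 2 was low at 5.64 CPM, its gap to the next library being 0.893 of the group's range. DE replicate 7 was high at 7.36 CPM, with a gap of 0.883 of the range. Both exceed Dixon's critical value at 95% for 4 libraries, and chance marks about 1 in 20 groups. Without DE replicate 7 the log2 fold change of Fgf16 was -0.41, and it was not called.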

How the results depend on the processing

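The count of 2 called members fell to 1 when the 25% difference was built into the test, with the sample-name prefix as a term and with prefix 11 only. With each library left out in turn it ran from 1 to 2. It was 3 with DESeq2, the likelihood ratio test, limma-voom, a mean of at least 1 CPM and exon-length offsets. The count of 9 called pathway genes fell to 1, 5 and 3 under the same alternatives, and ran from 2 to 9 with each library left out. It rose to 11 with DESeq2 and 13 with exon-length offsets. Leaving out FA replicate 2 or 4 or DE replicate 3 gave 2 pathway genes, and leaving out FA replicate 3 gave 3. The direction of 8 tested members held in every alternative run, and that of Fgf12, with 166 counts in all, turned to -0.36 without DE replicate 1 (with each library left out, -0.36 to 1.30). Over all genes, calls ran from 114 with the difference built in and 237 without FA replicate 4 to 1633 with DESeq2, against 868, and the median log2 fold change of all genes was 0.075 with library totals alone, against 0.0037. The causes were not tested. No paired analysis was possible because the labels give no pairing of FA with DE hearts. Depth limits Fgf2, Fgf12, Fgf23 and Fgfr4, which rest on 61, 166, 184 and 88 counts.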
